A study of Mus musculus with 12 samples.

Results

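Transcripts of T cells and natural killer (NK) cells were measured in purified resting B (RB) cells, as a reading of the other lymphocytes that came through the purification. The set holds 10 genes, Cd3d, Cd3e, Cd3g, Cd4, Cd8a, Thy1, Gzma, Nkg7, Klrd1 and Ncr1, chosen because they mark these cells. Every non-control spot that carried one of these names was taken, which gave 14 probes of the 61307 on the array. All 14 were among the 31599 probes tested. RB cells came from spleens of female BALB/c mice 6 weeks old, as labelled, and were obtained by removing CD43+ cells; the study's methods gate pure cells as CD45R+ and without CD43, CD4 or CD8. They were cultured for 4 h in 6 groups of 2 arrays each: left unstimulated, or given Pam2CSK4 (a lipopeptide ligand of TLR2), an antibody to CD86 (biotinylated and crosslinked with streptavidin), anti-CD86 with Pam2CSK4, an antibody to CD40, or anti-CD40 with Pam2CSK4. RNA was hybridised to 12 one-colour Agilent arrays on 2 slides. An isotype control was not analysed here, so the unstimulated cells are the only control. The labels number the replicates but do not say which came from separate mice or cultures, so p-values measure the spread between these arrays.

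Slide 1 carried 8 arrays: both unstimulated ones, both with anti-CD40 and Pam2CSK4, and the first array of each other group. Slide 2 carried the other 4, the second array of Pam2CSK4, anti-CD86, anti-CD86+Pam2CSK4 and anti-CD40. The share of spots well above background was 46.6 to 50.6% on slide 1 and 48.7 to 60.6% on slide 2. For the B cell label, 16 of 16 B cell genes, among them Cd79b and Ms4a1, were well above background on all 12 arrays. Detection alone does not set B cells apart here, because transcripts of other cells were measurable too. That was so for 8 of the 10 T and NK genes, 23 of 24 further T cell genes, 17 of 20 further NK and cytotoxic genes, 18 of the 19 myeloid genes on the array and 8 of the 10 red cell and platelet genes on it. Spn, which encodes CD43 itself, was also above background throughout, at 3.13 to 3.69 on the log2 scale. Such signals show that a transcript was detected and give no share of cells.

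T cells recognise antigen through a receptor whose signal is carried by the CD3 chains, and the coreceptors CD4 and CD8 bind MHC class II and class I molecules. Thy1 is a surface glycoprotein of all mouse T cells. Cytotoxic T cells and NK cells share a programme of granule proteins, such as granzymes, while NK cells also carry receptors of their own. In RNA from a bulk preparation, fewer cells of a type and less RNA per cell cannot be told apart.

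All levels below are log2 signals of 1 probe minus the 75th percentile of its array, so 0 is a probe brighter than 75 in 100 of the others on that array. Levels of different probes are not compared with each other, and a gene is represented by its brightest probe unless another is named. None of the 14 probes was saturated on any array. The lower-case sequences that follow are the 60-base oligonucleotides of the CD3 chains whose signal was well clear of background, 5′ to 3′, shown because the readings of the CD3 complex rest on them.

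Cd3d: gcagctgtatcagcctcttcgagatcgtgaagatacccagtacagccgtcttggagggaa
Cd3g: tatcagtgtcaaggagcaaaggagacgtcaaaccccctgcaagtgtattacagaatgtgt

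Of the 3 chains of the CD3 complex, Cd3d and Cd3g were highest on the unstimulated arrays and Cd3e was not. Cd3d read 3.11 and 3.10 in unstimulated cells, 3.05 and 2.68 with Pam2CSK4, 2.94 and 2.61 with anti-CD86, 2.98 and 2.49 with anti-CD86+Pam2CSK4, 2.95 and 2.52 with anti-CD40, and 3.08 and 3.06 with anti-CD40+Pam2CSK4. Every stimulated array lay below both unstimulated ones, and the 4 lowest values were the 4 arrays of slide 2. Cd3g read 1.60 and 1.52 unstimulated, 1.32 and 1.14 with Pam2CSK4, 1.07 and 1.04 with anti-CD86, 1.19 and 0.86 with anti-CD86+Pam2CSK4, 1.38 and 1.02 with anti-CD40, and 1.30 and 1.17 with anti-CD40+Pam2CSK4. Its 10 stimulated arrays also lay below both unstimulated ones.

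Cd3e, the chain that pairs with either of the other two, was dim on this array, between −3.14 and −1.65. Its unstimulated arrays read −2.18 and −2.83, so far apart that only 1 of the 10 stimulated arrays lay below both. No comparison with unstimulated cells was called for any CD3 chain. The largest difference of Cd3d was −0.37 (SE 0.22, adjusted p = 0.301, limma) with anti-CD86+Pam2CSK4, and that of Cd3g was −0.54 (SE 0.16, adjusted p = 0.0721) in the same group.

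By their brightest probes, neither coreceptor gene was called against unstimulated cells. Cd8a, the alpha chain of CD8, read 1.04 and 1.12 unstimulated, 1.12 and 0.78 with Pam2CSK4, 0.86 and 0.79 with anti-CD86, 0.67 and 0.35 with anti-CD86+Pam2CSK4, 0.73 and 0.51 with anti-CD40, and 0.74 and 0.64 with anti-CD40+Pam2CSK4. Of its 10 stimulated arrays, 9 lay below both unstimulated ones. The difference was −0.57 (SE 0.16, adjusted p = 0.0589) with anti-CD86+Pam2CSK4 and −0.46 (SE 0.16, adjusted p = 0.0876) with anti-CD40.

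The probe of Cd4 and the dimmest probe of Cd8a are given because neither was lower in stimulated cells in the way of the brighter probes.

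Cd4: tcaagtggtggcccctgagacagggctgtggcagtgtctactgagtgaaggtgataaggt
Cd8a probe 3: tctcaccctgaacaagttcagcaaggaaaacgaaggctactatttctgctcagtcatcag

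Cd4 read −3.61 and −3.90 unstimulated, −3.29 and −3.19 with Pam2CSK4, −3.56 and −2.95 with anti-CD86, −2.92 and −2.85 with anti-CD86+Pam2CSK4, −3.41 and −3.08 with anti-CD40, and −3.24 and −3.63 with anti-CD40+Pam2CSK4. It was well above background on 10 of 12 arrays, the exceptions being the second unstimulated array and the second with anti-CD40+Pam2CSK4. No stimulated array lay below both unstimulated ones. The difference was 0.87 (SE 0.23, adjusted p = 0.0503) with anti-CD86+Pam2CSK4 and between 0.32 and 0.51 in the other 4 groups, with none called. With anti-CD40 its sign turned under array median and quantile scaling.

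Both probes of Thy1 hold the letters AATAAA, which 3643 of the 61307 array probes (5.94%) hold on the strand given and none of the other 12 probes of this set does. A stretch of 30 bases of each is shown, with these letters in capitals, because the probes differed in how far their signal moved. Whether either stretch is coding or untranslated was not determined.

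Thy1 probe 1 stretch: agaaaactgcacAATAAAaccaagcctctg
Thy1 probe 2 stretch: cccatgagctccAATAAAagtatcagtgtg

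Thy1 read 3.62 and 3.67 unstimulated, 3.36 and 3.23 with Pam2CSK4, 3.17 and 2.87 with anti-CD86, 3.02 and 2.77 with anti-CD86+Pam2CSK4, 3.29 and 2.89 with anti-CD40, and 3.28 and 3.21 with anti-CD40+Pam2CSK4. All 10 stimulated arrays lay below both unstimulated ones, with no overlap. Thy1 fell with anti-CD86+Pam2CSK4, by 0.75 on the log2 scale (SE 0.17, adjusted p = 0.0338), a 1.68-fold difference. The difference was −0.62 (SE 0.17, adjusted p = 0.0916) with anti-CD86 and −0.55 (SE 0.17, adjusted p = 0.0610) with anti-CD40.

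The cytotoxic and NK genes of the set were Gzma, Nkg7, Klrd1 and Ncr1. The probes shown are those of Gzma (granzyme A, a serine protease of cytotoxic granules), of Nkg7 (a granule membrane protein of NK and cytotoxic T cells; its second probe) and of Klrd1 (CD94, the partner of NKG2 receptors).

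Gzma: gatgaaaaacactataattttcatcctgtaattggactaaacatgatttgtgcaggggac
Nkg7 probe 2: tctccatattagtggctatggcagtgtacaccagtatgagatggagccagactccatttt
Klrd1: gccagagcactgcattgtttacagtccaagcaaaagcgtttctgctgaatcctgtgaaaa

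Gzma read 2.50 and 2.48 unstimulated, 2.25 and 2.29 with Pam2CSK4, 2.06 and 2.06 with anti-CD86, 1.89 and 1.88 with anti-CD86+Pam2CSK4, 1.91 and 1.79 with anti-CD40, and 2.22 and 2.17 with anti-CD40+Pam2CSK4. The arrays of a group lay close together, and from the highest group to the lowest each pair of neighbours was apart except anti-CD86+Pam2CSK4 and anti-CD40, which overlapped. The groups were put in order by these same values, which favours such gaps. Between 0 and 2 neighbouring pairs were apart for the other genes of the set. The share of all probes with as many gaps was not computed. Gzma fell with anti-CD40 by 0.64 (SE 0.10, adjusted p = 0.00704), a 1.56-fold difference, and with anti-CD86+Pam2CSK4 by 0.60 (SE 0.10, adjusted p = 0.0154), a 1.52-fold difference. With anti-CD86 the difference was −0.43 (adjusted p = 0.0623), with anti-CD40+Pam2CSK4 −0.30 (adjusted p = 0.0743) and with Pam2CSK4 −0.22 (adjusted p = 0.328).

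Nkg7 read 3.14 and 3.13 unstimulated, 2.92 and 2.60 with Pam2CSK4, 2.60 and 2.27 with anti-CD86, 2.50 and 2.04 with anti-CD86+Pam2CSK4, 2.48 and 2.09 with anti-CD40, and 2.56 and 2.54 with anti-CD40+Pam2CSK4. Every stimulated array lay below both unstimulated ones, and in the 4 groups that span the slides the array of slide 2 was the lower. Nkg7 fell with anti-CD86+Pam2CSK4 by 0.86 (SE 0.21, adjusted p = 0.0407), a 1.82-fold difference, and with anti-CD40 by 0.85 (SE 0.21, adjusted p = 0.0315), a 1.81-fold difference.

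Klrd1 read 2.10 and 2.09 unstimulated, 1.92 and 1.74 with Pam2CSK4, 1.94 and 1.74 with anti-CD86, 1.70 and 1.47 with anti-CD86+Pam2CSK4, 2.09 and 1.77 with anti-CD40, and 2.12 and 1.93 with anti-CD40+Pam2CSK4. Of the stimulated arrays 9 of 10 lay below both unstimulated ones, and no comparison with unstimulated cells was called. The lowest adjusted p was 0.0718, with anti-CD86+Pam2CSK4, for a difference of −0.51 (SE 0.16).

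Ncr1, which encodes the NK receptor NKp46, was at the edge of detection. It read −2.62 and −2.58 unstimulated, −3.26 and −3.36 with Pam2CSK4, −2.79 and −3.96 with anti-CD86, −2.77 and −3.33 with anti-CD86+Pam2CSK4, −2.85 and −2.21 with anti-CD40, and −3.58 and −3.57 with anti-CD40+Pam2CSK4. Neither array with anti-CD40+Pam2CSK4, nor the second with Pam2CSK4, was well above background. For anti-CD40+Pam2CSK4 a floor was therefore used, and the mean unstimulated signal lay 1.89-fold above it. On each anti-CD40+Pam2CSK4 array this floor is the higher of the lowest signal well above background there and the probe's own signal. The ratio describes these arrays and sets no lower limit on the difference, which was not called (adjusted p = 0.113, limma). None of the 5 comparisons with unstimulated cells was called for Ncr1.

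**Figure D1:**
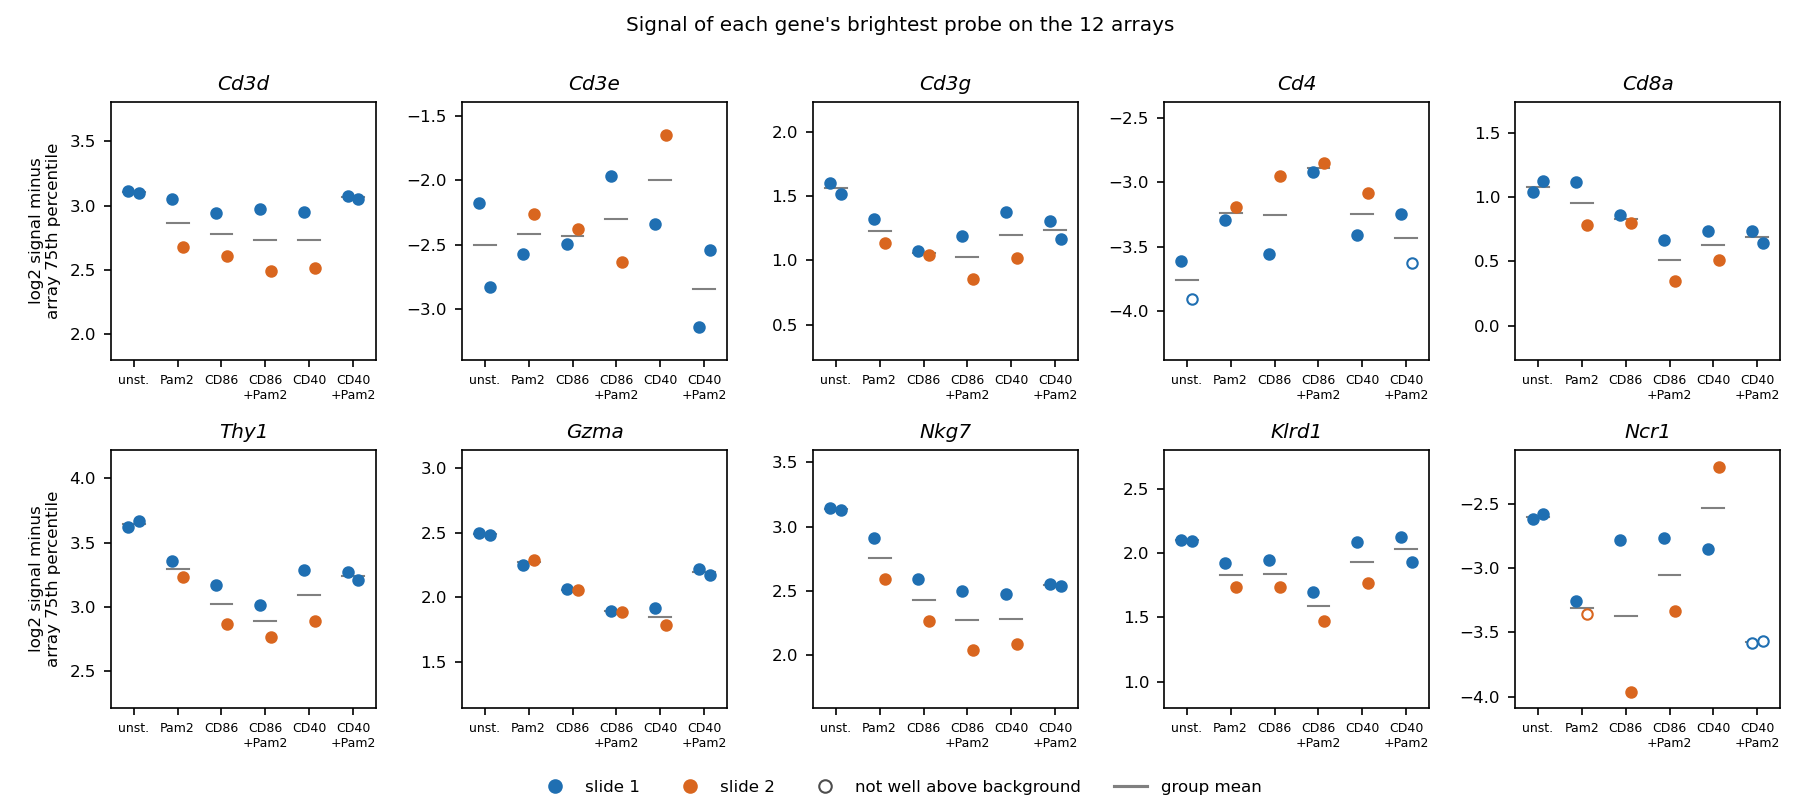
Log2 signal minus the array 75th percentile (vertical axes, each spanning 2 log2 units) of the brightest probe of each gene on the 12 arrays, by group along the horizontal axes (unst., unstimulated; Pam2, Pam2CSK4; CD86 and CD40, the antibodies); points are arrays coloured by slide, open where not well above background, and grey lines are group means. Thy1, Gzma and Nkg7 are highest on both unstimulated arrays (Nkg7 3.14 and 3.13), whereas Cd4 is lowest there on average and Cd3e has no order.

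Over the set, 5 of the 10 genes (Cd3d, Cd3g, Thy1, Gzma and Nkg7) were lower on all 10 stimulated arrays than on both unstimulated ones. Of all tested probes, 16.5% did the same. All 5 comparisons with unstimulated cells share those 2 arrays, so the comparisons are not independent of each other, and only each one's own values are given.

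Anti-CD86+Pam2CSK4 against unstimulated cells, the question being what joint CD86 and TLR2 stimulation did, had 3 genes of the set called. Of 10 genes 3 fell, Thy1, Gzma and Nkg7, and none rose; 10.7% of all tested probes were called in either direction and 7.28% were called lower. The median log2 fold change of the 10 was −0.53, against −0.03 over all tested probes, and 8 of the 10 values were below 0. The calls of all probes moved widely when 1 array was left out, and those of the set with them. Without the first or the second unstimulated array none of the 10 was called (0.0981% and 0.0918% of all probes), nor without the second anti-CD86+Pam2CSK4 array (0.671%). Leaving out the first anti-CD86+Pam2CSK4 array (3.47% of all probes called) or either anti-CD40+Pam2CSK4 array (4.01%) left 1, Gzma. Leaving out either anti-CD40 array (14.6%) gave 5, Cd3g, Thy1, Gzma and Nkg7 lower and Cd4 higher, and leaving out either anti-CD86 array (5.78%) gave 3, with Cd4 in place of Nkg7. Array medians in place of the 75th percentile (0.418%), or no filter on dim probes (0.0425%), left 0 called.

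Anti-CD40 against unstimulated cells had 2 of 10 genes called, Gzma and Nkg7, both lower, where 16.8% of all probes were called and 10.7% were called lower. The median of the 10 was −0.36, against −0.02 over all probes. With slide as a block, described below, the median of the 10 was −0.21. Again none was called without the first or the second unstimulated array (1.94% and 1.81% of all probes). Without the second anti-CD40 array (6.01%), or without either anti-CD40+Pam2CSK4 array (9.99%), 1 was, Gzma, and without the first anti-CD40 array (23.1%) 3 were. Array medians (1.1%) or no filter (1.81%) left 0.

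With the single other agents, and with anti-CD40+Pam2CSK4, no gene of the set was called by limma. For Pam2CSK4 0 of 10 passed, where 0.133% of all probes were called, and 0 had an unadjusted p under 0.05, as 15.6% of all probes did. The median was −0.25 against −0.07. For anti-CD86 0 of 10 passed, where 2.07% of probes were called, and 4 had an unadjusted p under 0.05, as 23.1% of probes did. The median was −0.38 against −0.05. For anti-CD40+Pam2CSK4 0 of 10 passed, where 18.1% of probes were called, and 5 had an unadjusted p under 0.05, as 33.9% of probes did, with a median of −0.33 against 0.01. Leaving out either anti-CD86 array (15.4% of all probes called) brought 1 call in that last comparison, Ncr1, whose signal was not well above background on either anti-CD40+Pam2CSK4 array.

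The comparisons that ask what a second signal added also had no call in the set. For anti-CD86+Pam2CSK4 against Pam2CSK4, 0 of 10 passed (0.0633% of probes called) and 4 had an unadjusted p under 0.05 (10.3% of probes), and Gzma differed by −0.38 (SE 0.10, adjusted p = 0.243). Against anti-CD86, 0 of 10 passed (0.225% called) and 0 had an unadjusted p under 0.05 (8.85% of probes). For anti-CD40+Pam2CSK4, 0 of 10 passed against Pam2CSK4 (9.81% called), with 0 at an unadjusted p under 0.05 (26.6% of probes). Against anti-CD40 0 of 10 passed (2.89% called), with 3 at an unadjusted p under 0.05 (19.8% of probes). The interaction of Pam2CSK4 with anti-CD86 was called for 0 of 10 genes (0.0190% of probes), and 0 had an unadjusted p under 0.05 (4.26% of probes). That with anti-CD40 was called for 0 of 10 (1.15% of probes), and 1 had an unadjusted p under 0.05 (19.2% of probes).

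Gzma was the gene behind that unadjusted value. Its interaction of Pam2CSK4 and anti-CD40 was 0.57 (SE 0.14, adjusted p = 0.113), its level with both agents, 2.22 and 2.17, lying above the 1.91 and 1.79 of anti-CD40 alone. Over all 6 groups together 1 of 10 genes, Gzma, differed (adjusted p = 0.0154), where 20.1% of all probes were called. No gene was called there without either unstimulated array (7.91% and 7.79% of all probes) or either anti-CD40+Pam2CSK4 array (7.07% and 6.71%), and 2 were without the first anti-CD40 array (24.6%).

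Arrays also differed between the slides. In the groups that span them, slide 1 held replicate 1 and slide 2 replicate 2. Slide and replicate number therefore coincide there, and which of them the difference follows was not tested. Between the slides, within the 4 groups that span them, 6 of 10 genes were called and all 6 were lower on slide 2 (Cd3d, Cd3g, Cd8a, Thy1, Nkg7 and Klrd1), where 57.4% of all probes were called and 39.6% lower. Cd3d differed by −0.41 (SE 0.04, adjusted p = 0.000656), and Nkg7 by −0.37 (SE 0.04, adjusted p = 0.000756). For Gzma the slide difference was −0.03 (SE 0.04, adjusted p = 0.589), but with array medians in place of the 75th percentile it was −0.56 (adjusted p = 0.00829), a scaling that lowered every slide difference by 0.53. For Cd4 it was 0.28 (SE 0.13, adjusted p = 0.112). Both unstimulated arrays were on slide 1, so each fold change of a group that spans the slides may hold part of this difference.

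With slide as a block the standard errors in the groups that span the slides were smaller for 8 of the 10 genes and larger for Cd3e and Ncr1. More genes passed, although most differences of the groups that span the slides were smaller too. With anti-CD86+Pam2CSK4 7 of 10 were called, 6 lower (Cd3g, Cd8a, Thy1, Gzma, Nkg7 and Klrd1) and 1 higher (Cd4, 0.73, adjusted p = 0.0287), where 35.1% of all probes were called and 20.5% were lower. The value of Cd4 is read against unstimulated cells in which 1 of 2 arrays was well above background. With anti-CD86 4 of 10 were called, all lower (Cd3g, Thy1, Gzma and Nkg7), where 28.5% of probes were called and 15.4% lower. With anti-CD40 4 of 10 were lower (Cd8a, Thy1, Gzma and Nkg7), where 37.4% of probes were called and 21.7% lower. With anti-CD40+Pam2CSK4 5 of 10 were lower (Cd3g, Cd8a, Thy1, Gzma and Nkg7), where 47.5% of probes were called and 23.8% lower. With Pam2CSK4 0 of 10 were called, where 10.9% of probes were, and 3 had an unadjusted p under 0.05, as 29.9% of probes did.

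Gzma and Nkg7 kept most of their size under the block. With anti-CD86+Pam2CSK4 the blocked difference of Gzma was −0.59 (adjusted p = 0.00133) and that of Nkg7 −0.67 (adjusted p = 0.000896); with anti-CD40 they were −0.63 (adjusted p = 0.000666) and −0.67 (adjusted p = 0.000465). Cd3d, by contrast, went to −0.17 and −0.16 (adjusted p = 0.0677 and 0.0668). In the added-signal comparisons the block called 4 of 10 for anti-CD86+Pam2CSK4 against Pam2CSK4, all lower (Cd8a, Thy1, Gzma and Nkg7), where 11.1% of probes were called and 5.37% lower. It called 2 of 10 for anti-CD40+Pam2CSK4 against Pam2CSK4, both lower (Cd8a and Nkg7), where 31.6% of probes were called and 14.5% lower. Against anti-CD40 it called 1, Gzma, higher with both agents by 0.33 (adjusted p = 0.0160), where 15.3% of probes were called and 8.93% higher. The interaction with anti-CD40 was also called for Gzma (0.54, adjusted p = 0.0212), where 8.55% of probes were called and 5.02% in that direction.

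On the 8 arrays of slide 1 alone, where the second slide plays no part, 3 of 10 genes were lower with anti-CD86+Pam2CSK4 (Thy1, Gzma and Nkg7), where 19.8% of probes were called and 11.0% lower. With anti-CD40 3 of 10 were lower (Thy1, Gzma and Nkg7), where 22.9% of probes were called and 12.6% lower. With anti-CD40+Pam2CSK4 6 of 10 were lower (Cd3g, Cd8a, Thy1, Gzma, Nkg7 and Ncr1), where 40.3% of probes were called and 21.4% lower. Ncr1 is counted there from a signal that was not well above background on either anti-CD40+Pam2CSK4 array. By limma 0 of 10 were called with Pam2CSK4 (0.00% of probes called) and 0 with anti-CD86 (0.0127%), with 4 at an unadjusted p under 0.05 in each, as were 24.6% of all probes with Pam2CSK4 and 36.2% with anti-CD86. Apart from anti-CD40+Pam2CSK4, each stimulated group has 1 array there, assumed to vary like the groups with 2. Gzma there differed by −0.60 with anti-CD86+Pam2CSK4, −0.58 with anti-CD40 and −0.30 with anti-CD40+Pam2CSK4.

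**Figure D2:**
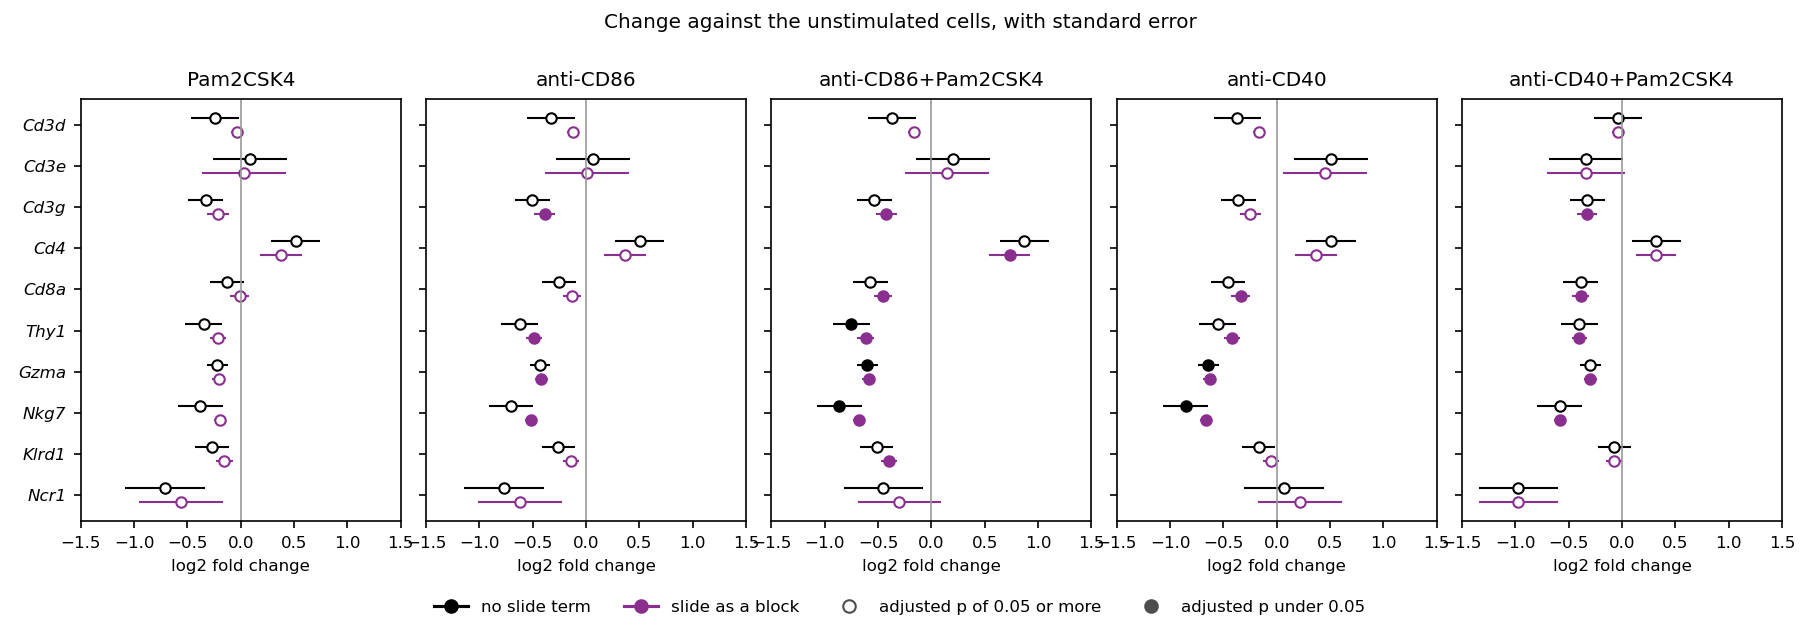
Log2 fold change against unstimulated cells (horizontal axes) with its standard error for each gene's brightest probe (vertical axis) in the 5 stimulated groups, without a slide term (black) and with slide as a block (purple); filled points have an adjusted p under 0.05. Black filled points are Thy1, Gzma and Nkg7 with anti-CD86+Pam2CSK4 and Gzma and Nkg7 with anti-CD40, and Cd4 lies to the right in every panel; the value of Ncr1 with anti-CD40+Pam2CSK4 is from a signal not well above background.

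The 3 genes with more than 1 probe allow a check within a gene. The second probe of Nkg7 read 1.70 and 1.78 unstimulated and was lower on all 10 stimulated arrays; it fell with anti-CD40 by 0.86 (adjusted p = 0.0160), close to the first probe, and with anti-CD86+Pam2CSK4 its difference of −0.55 was not called (adjusted p = 0.0739). Its slide difference of −0.17 was not called either (adjusted p = 0.185).

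The second probe of Cd8a, at −0.00 and −0.02 unstimulated, was lower on all 10 stimulated arrays and passed where the first did not. It fell by 0.91 (adjusted p = 0.0191) with anti-CD86+Pam2CSK4 and by 0.67 (adjusted p = 0.0299) with anti-CD40, and was called over the 6 groups (adjusted p = 0.0430). The dimmest probe of Cd8a, between −2.85 and −2.09, had no such difference, at −0.00 (SE 0.19, adjusted p = 0.997) with anti-CD86+Pam2CSK4. The dimmer probe of Thy1, between −1.74 and −1.11, was also lower on all 10 stimulated arrays, but with anti-CD86+Pam2CSK4 it differed by −0.29 (SE 0.17, adjusted p = 0.293), less than the −0.75 of the brighter probe. For each of the 3 genes, then, 1 probe was called and another was not in at least 1 comparison. Whether the probes of a gene differed from each other was not tested.

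**Figure D3:**
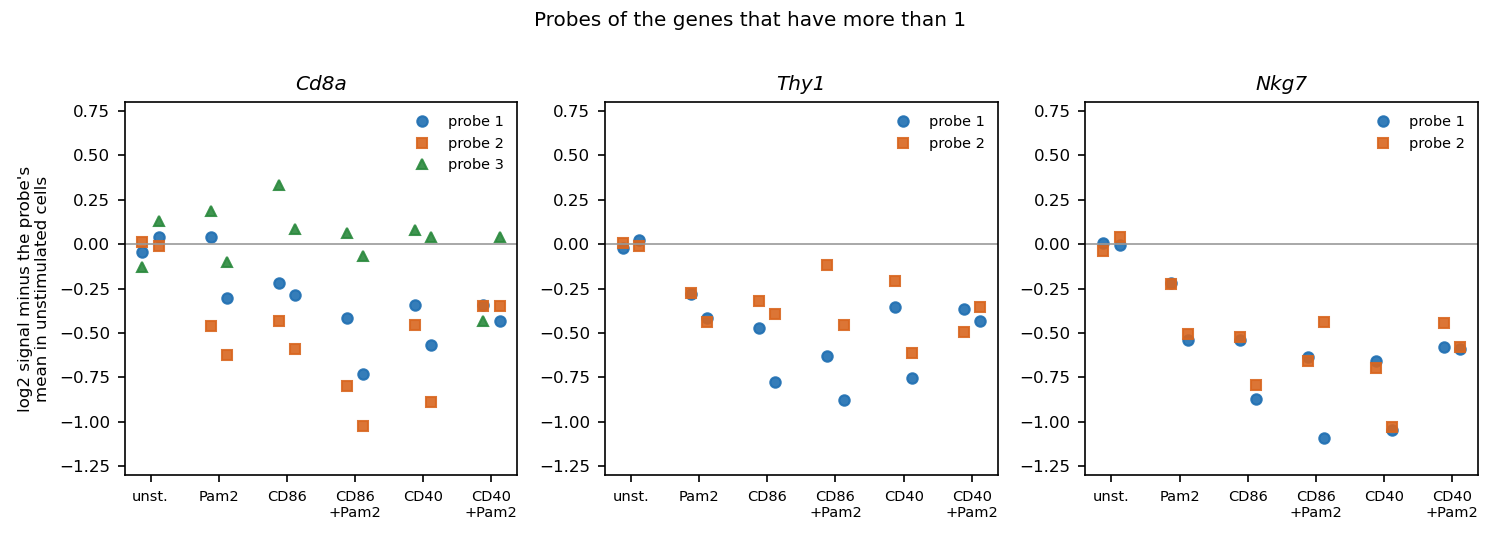
Log2 signal of each probe of Cd8a, Thy1 and Nkg7 on the 12 arrays minus that probe's mean on the unstimulated arrays (vertical axis), by group along the horizontal axis; the grey line is 0, and symbols are probes numbered from the brightest. Probes 1 and 2 lie below 0 on every stimulated array except, for Cd8a probe 1, the first with Pam2CSK4, while Cd8a probe 3 scatters around it.

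Further genes linked to the same cells were taken from lists of T cell and of NK and cytotoxic genes. Not all are confined to those cells. Cd5 is in the T cell list, and the study also measured CD5 on RB cells by flow cytometry. Of 23 tested T cell genes other than the set, 0 were called with Pam2CSK4, anti-CD86 or anti-CD86+Pam2CSK4, where 0.133%, 2.07% and 10.7% of all probes were, and 1 was lower with each of the anti-CD40 groups, where 10.7% (anti-CD40) and 9.65% (anti-CD40+Pam2CSK4) of all probes were. That gene was Cd2, an adhesion receptor of T and NK cells that B cells also express in mice, which fell by 1.00 (SE 0.16, adjusted p = 0.00774) with anti-CD40 and by 0.56 (SE 0.16, adjusted p = 0.0410) with anti-CD40+Pam2CSK4. The list's median was −0.26 with anti-CD86+Pam2CSK4, −0.18 with anti-CD40 and −0.00 with anti-CD40+Pam2CSK4. With slide as a block it was −0.13, −0.08 and −0.00 in those groups. On slide 2 22 of the 23 had a lower signal and 15 were called lower, as were 39.6% of all probes.

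Of 19 tested NK and cytotoxic genes other than the set, 5 fell with anti-CD86+Pam2CSK4, 5 with anti-CD40 and 3 with anti-CD40+Pam2CSK4; none rose, and 0 were called with Pam2CSK4 or anti-CD86 (0.133% and 2.07% of all probes). Of all tested probes 7.28%, 10.7% and 9.65% were called lower in those 3 groups, and the list's medians there were −0.44, −0.39 and −0.25. With slide as a block these medians were −0.29, −0.25 and −0.25. With anti-CD86+Pam2CSK4 the largest changes among the called genes were those of Cd7 (an early marker of T and NK cells), at −0.91 (SE 0.20, adjusted p = 0.0312), Xcl1 (the chemokine lymphotactin), at −0.78 (adjusted p = 0.0398), and Ccl5 (RANTES), at −0.62 (adjusted p = 0.0358). With anti-CD40 Xcl1 changed by −1.02 (SE 0.19, adjusted p = 0.0129), Cd7 by −0.72 (adjusted p = 0.0456) and Gzmb, granzyme B, by −0.60 (adjusted p = 0.0163). With anti-CD40+Pam2CSK4 Gzmk, granzyme K, changed by −1.08 (adjusted p = 0.00585), Klrb1c (NK1.1) by −0.68 (adjusted p = 0.0103) and Gzmb by −0.51 (adjusted p = 0.0207). On slide 2 17 of the 19 had a lower signal and 14 were called lower (39.6% of all probes).

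Markers of other cells moved beside them. Of 19 tested myeloid genes 5 fell with anti-CD86+Pam2CSK4, 5 with anti-CD40 and 5 with anti-CD40+Pam2CSK4, with medians of −0.45, −0.41 and −0.48, and 1 fell with anti-CD86 (S100a8, −0.51, adjusted p = 0.0465), where 2.07% of all probes were called; none rose. The shares of all probes called lower in those 3 groups were, again, 7.28%, 10.7% and 9.65%. Mpo, myeloperoxidase of neutrophil precursors, fell by 1.35 (SE 0.20, adjusted p = 0.0121), 0.91 (adjusted p = 0.0218) and 0.83 (adjusted p = 0.0243) in those 3 groups. Emr1, the macrophage marker F4/80, fell by 0.90 (adjusted p = 0.0157), 0.69 (adjusted p = 0.0204) and 0.78 (adjusted p = 0.00950). Itgam, CD11b, changed by −0.79 (adjusted p = 0.0118) with anti-CD86+Pam2CSK4 and −0.81 (adjusted p = 0.00288) with anti-CD40+Pam2CSK4, and S100a8, a calprotectin chain, by −0.67 (adjusted p = 0.00622) with anti-CD40. S100a9, the other calprotectin chain, was saturated on all 12 arrays and is among the 19. The part of these markers in the values of the T and NK genes was not tested.

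Of 9 tested red cell and platelet genes, 3 fell with anti-CD86+Pam2CSK4 (Pf4, platelet factor 4, at −0.99, adjusted p = 0.0118; Klf1, an erythroid transcription factor, at −0.69, adjusted p = 0.0421; Gp9, a platelet glycoprotein, at −0.62, adjusted p = 0.0468), where 7.28% of all probes were called lower. The list's median there was 0.05, and 4 of its 9 values were below 0. It was −0.38 with anti-CD86 (8 of 9 below 0) and −0.22 with anti-CD40 (7 of 9). With slide as a block the 3 medians were 0.09, −0.22 and −0.02. With each anti-CD40 group 1 fell, Pf4, at −1.03 (adjusted p = 0.00513) and −0.69 (adjusted p = 0.0138), where 10.7% and 9.65% of all probes were called lower. Of 5 genes of plasma cells and CD43, of which Igj was saturated on all 12 arrays, Spn fell in these 3 groups, by 0.52 (SE 0.11, adjusted p = 0.0282) with anti-CD86+Pam2CSK4, 0.42 (adjusted p = 0.0375) with anti-CD40 and 0.44 (adjusted p = 0.0279) with anti-CD40+Pam2CSK4. Sdc1, the plasma cell marker CD138, fell by 1.02 (adjusted p = 0.0222) and 0.96 (adjusted p = 0.0217) with anti-CD40 and with anti-CD40+Pam2CSK4. The median of the 5 genes was −0.52 with anti-CD86+Pam2CSK4, −0.41 with anti-CD40 and −0.44 with anti-CD40+Pam2CSK4. With slide as a block it was −0.41, −0.35 and −0.44 in those groups.

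B cell genes gave calls in both directions. Of 16 tested, 0 were called with Pam2CSK4, anti-CD86 or anti-CD86+Pam2CSK4 (0.133%, 2.07% and 10.7% of all probes). The median in the last fell between Cd79b and Blnk, both saturated, and is not read. With anti-CD40 1 rose and 3 fell, where 6.09% of all probes were called higher and 10.7% lower, and with anti-CD40+Pam2CSK4 2 rose and 2 fell, where 8.46% were called higher and 9.65% lower. The list's medians there were −0.22 (−0.11 with slide as a block) and −0.00. Fcrla, a B cell Fc receptor-like protein, fell by 2.01 (SE 0.11, adjusted p = 0.000183) and 2.08 (SE 0.11, adjusted p = 2.62e-05), and Btk, the B cell receptor kinase, by 1.38 (adjusted p = 0.00432) with anti-CD40. Fcer2a (CD23) rose by 1.20 (adjusted p = 0.00557) and 1.49 (adjusted p = 0.00127), and Spib, a B cell transcription factor, rose by 0.86 (adjusted p = 0.0244) with anti-CD40+Pam2CSK4. Cd79b and Blnk were saturated on all 12 arrays, so a change in them could not be read.

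With slide as a block the lists had more calls, as all probes did. Of all probes 4.77% were then called higher and 6.15% lower with Pam2CSK4, 13.0% and 15.4% with anti-CD86, 14.6% and 20.5% with anti-CD86+Pam2CSK4, 15.6% and 21.7% with anti-CD40, and 23.7% and 23.8% with anti-CD40+Pam2CSK4. Of the 23 T cell genes, 1 was higher and 0 lower with Pam2CSK4, 2 and 2 with anti-CD86, 3 and 6 with anti-CD86+Pam2CSK4, 1 and 2 with anti-CD40, and 5 and 4 with anti-CD40+Pam2CSK4. Of the 19 NK and cytotoxic genes, the counts in the same order were 1 higher and 3 lower, 1 and 8, 1 and 10, 1 and 9, and 2 and 9. Of the 19 myeloid genes 1 was higher in each comparison, and 4, 8, 7, 10 and 11 were lower. Of the 9 red cell and platelet genes, 0 were higher and 1 lower, 0 and 3, 3 and 3, 0 and 2, and 1 and 1. Of the 5 plasma cell and CD43 genes, among them the saturated Igj, 0 were higher and 1 lower, 1 and 1, 0 and 3, 0 and 3, and 1 and 3. Of the 16 B cell genes, 4 were higher and 0 lower, 4 and 1, 7 and 4, 4 and 8, and 7 and 6. S100a9 is among the 19 myeloid genes, and Cd79b and Blnk are among the 16 B cell genes. All were saturated on all 12 arrays, so a call of them as higher cannot be read as a rise. With anti-CD40+Pam2CSK4 S100a9 had the highest value of the myeloid list, 0.38.

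**Figure D4:**
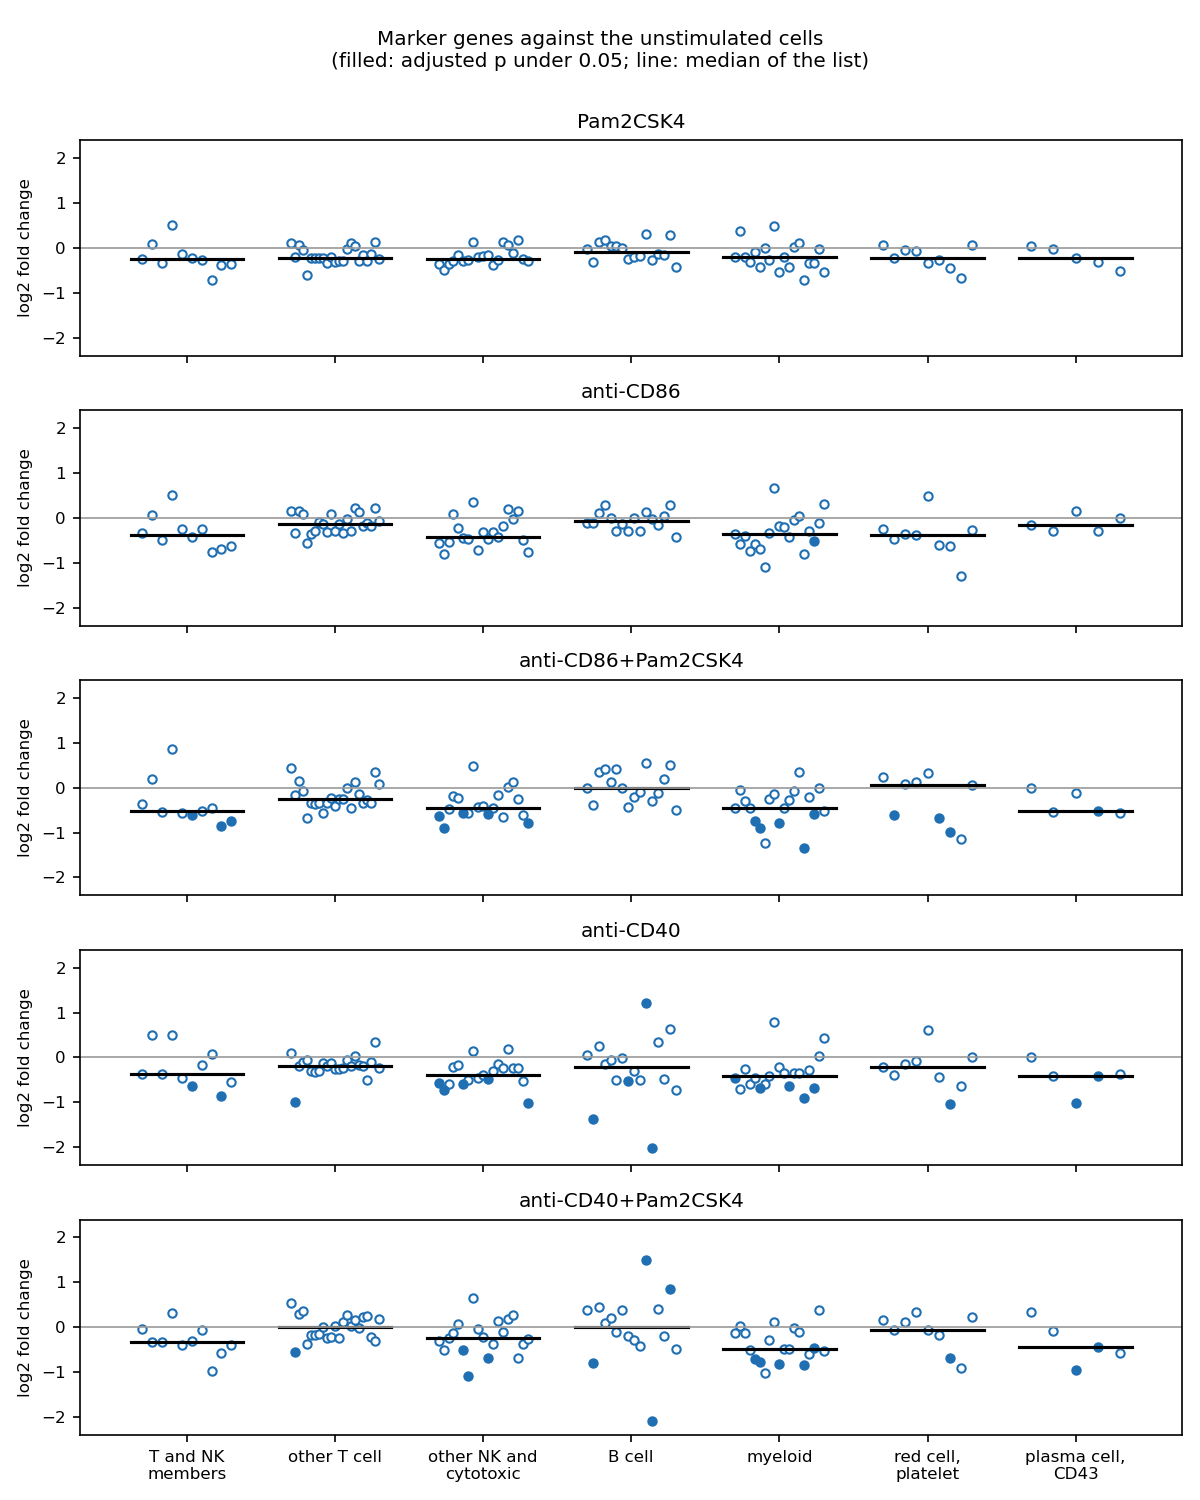
Log2 fold change against unstimulated cells (vertical axes) of every tested gene of each marker list (horizontal axis, genes in alphabetical order) in the 5 stimulated groups; filled points have an adjusted p under 0.05 and black lines are list medians. Values are without a slide term. With anti-CD86+Pam2CSK4 the medians lie below 0 for the T and NK set (−0.53), further T cell genes (−0.26) and further NK genes (−0.44). They also lie below 0 for myeloid genes (−0.45) and for plasma cell and CD43 genes (−0.52), and that of red cell and platelet genes is 0.05. That of the B cell genes falls between the saturated Cd79b and Blnk, so it is not read.

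To see which genes followed the set over the arrays, the centred signals of its 8 genes well above background on all 12 arrays were averaged. That mean was 0.34 and 0.25 on the unstimulated arrays, from −0.03 to 0.14 on the other slide 1 arrays, and from −0.38 to −0.01 on slide 2. Among 11753 other named genes those most alike included Dut (Pearson r = 0.98), Gsn (0.98), Gm5514 (0.97) and Etfb (0.97), over 12 arrays that share groups and slides. None of these is a T or NK cell marker; Gsn encodes the actin-severing protein gelsolin. An r above 0.9 was reached by 5.14% of the genes, so likeness of this kind was common. With each slide's mean subtracted they included Ms4a3, Gsn, Tyms and Ryk (each 0.96), and 1.97% of genes were above 0.9.

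Promoter sequence was available from RefSeq (GRCm38.p6) for 7 of the 10 genes. TGTGGT, a spelling of the site read by RUNX factors, which act in T and NK cell development, was searched on both strands (ACCACA on the other) in the 250 bases before each start. It was in 3 of the 7, Gzma, Nkg7 and Ncr1, and in 14.05% of the 32851 windows of the table. The windows of Gzma (chr13:113100982-113101231, minus strand) and Nkg7 (chr7:43436888-43437137, plus strand), the genes called in both comparisons, are given 5′ to 3′ along the gene with the match in capitals. A match is a run of letters and was not tested for binding.

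Gzma promoter: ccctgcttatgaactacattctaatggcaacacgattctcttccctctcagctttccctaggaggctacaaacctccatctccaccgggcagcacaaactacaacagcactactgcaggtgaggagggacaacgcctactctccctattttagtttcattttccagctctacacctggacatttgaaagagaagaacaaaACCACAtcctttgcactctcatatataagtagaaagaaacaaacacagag
Nkg7 promoter: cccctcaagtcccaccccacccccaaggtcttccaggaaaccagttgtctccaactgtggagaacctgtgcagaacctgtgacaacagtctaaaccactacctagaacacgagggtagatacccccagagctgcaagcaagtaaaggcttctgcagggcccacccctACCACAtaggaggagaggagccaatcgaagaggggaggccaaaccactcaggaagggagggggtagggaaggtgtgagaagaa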

How the data were processed

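Per the labels and the study's methods, RNA was labelled with Cy3 from an oligo-dT primer and each array was scanned and quantified by the authors with Agilent Feature Extraction (10.5.1.1 in the file headers, design annotated to mm9). The deposited scanner files give intensity per spot, already background-corrected by that program. The deposited value table gives the authors' log2 values of the same arrays; it differed from the log2 intensity only by a constant per array, so its centring is known only as that constant, and it served as an alternative. From the processed intensity, control spots and outlier spots were left out, spots of a probe were averaged on the log2 scale, and the 75th percentile of each array was subtracted. A probe was kept where the program's well-above-background call held for both replicates in 1 group or more; 68 such probes lacked a value and were dropped, leaving 31599. Group differences were fitted with limma 3.58.1 (R 4.3.3) on all 12 arrays, with Benjamini-Hochberg adjustment over all 31599 and a threshold of 0.05. The script was tested on simulated data. The number of arrays, 2 per group, limits the precision. Alternatives were other scalings, background correction and filters, slide or replicate number as a block, and leaving out arrays; slide 1 alone was added after the data were seen. The members and lists were chosen with earlier results of these data known. Every probe of the 10 genes is named, and from each other list the called genes with the 3 largest changes in each comparison with unstimulated cells. Probe and promoter sequences were copied from the scanner files and from RefSeq (GRCm38.p6), and the array's own positions were not used. No column of per-sample values was left unused. Among the genes whose pattern was most like the set, 1 is not reported here.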

Additional observations from a re-analysis of the deposited data

How the results depend on the processing

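Among 2636 refitted log2 fold changes of the 10 genes, 2403 stayed on the same side of the threshold with the same sign, 54 lost a call, 84 gained one, 95 changed sign while not called, and 0 reversed a call. Thy1, Gzma, Nkg7 and Cd3g were below 0 against unstimulated cells in all 5 comparisons under every setting run. Array median scaling lowered every fold change against unstimulated cells by a constant within each comparison, from −0.11 (anti-CD40+Pam2CSK4) to −0.57 (anti-CD40). The share of all probes called at each setting stands in brackets. Genes called with anti-CD86+Pam2CSK4 against unstimulated cells numbered 3 (10.7%), and then 0 with array medians (0.418%), without a filter on dim probes (0.0425%), or on the arrays of those 2 groups only (0%); 6 with quantile scaling (12.6%) or normexp (13.6%); 7 with the slide block (35.1%); and 7 with the replicate block (24.8%). For anti-CD40 the 2 (16.8%) became 0 in the same first 3 settings (1.1%, 1.81% and 0%), 4 with normexp (19.0%), 4 with the slide block (37.4%) and 5 with the replicate block (30.2%). For anti-CD86 the 0 (2.07%) became 2 with quantile scaling (5.15%), 2 with normexp (4.18%), 1 where every array had to be above background (5.21%), 4 with the slide block (28.5%) and 4 with the replicate block (12.8%). For anti-CD40+Pam2CSK4 the 0 (18.1%) became 1 with quantile scaling (20.2%), 3 with normexp (19.8%), 5 with the slide block (47.5%), 2 with the replicate block (27.2%), and 6 (40.3%) on the arrays of those groups only and on slide 1. With the slide block the 0 became 4 for anti-CD86+Pam2CSK4 against Pam2CSK4 (11.1%), 2 for anti-CD40+Pam2CSK4 against Pam2CSK4 (31.6%), 1 against anti-CD40 (15.3%) and 1 for the interaction with anti-CD40 (8.55%), which the replicate block also put at 1 (4.49%). The 1 gene over the 6 groups (20.1%) became 0 with array medians (3.23%) or no filter (2.50%), 3 with quantile scaling (7579 of 31599 probes), 4 with normexp (23.4%), 5 with the slide block (18974 of 31599) and 5 with the replicate block (37.7%), and stayed 1 with the methods' one way test (18.1%). The 6 genes between slides (57.4%) became 3 without a filter (23.3%) and 8 with array medians (76.7%), Gzma and Ncr1 being the 2 added. Leaving out 1 array gave 0 to 5 calls for anti-CD86+Pam2CSK4, 0 to 3 for anti-CD40, 0 to 1 for anti-CD40+Pam2CSK4, 0 to 2 over the 6 groups, 4 to 6 between slides and 0 elsewhere; where it leaves 1 array in a group, that array is assumed to vary like the others. The cause of these shifts was not tested. Over all probes the anti-CD86+Pam2CSK4 count moved from 3366 to between 29 and 4602 without 1 array, and to 11092 with the slide block.

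The replicate numbers do not pair the arrays by the labels. Deviations of same-numbered arrays correlated at 0.54 to 0.67 among the 4 groups whose numbers match slides (6 pairs of groups) and at −0.11 to 0.07 in the other 9 pairs. Signal over background limits Cd3e, Cd4 and Ncr1. By brightest probe and without a slide term they had the set's largest standard errors against unstimulated cells (0.35, 0.23 and 0.37). The cause was not tested.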
